A study of Mus musculus with 29 samples.

Results

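The genes examined were the mouse collagens, chosen as the protein-coding genes whose symbol has the form Col, a type number, a and a chain number. They number 44 of the 21620 protein-coding genes listed in all 3 sets of libraries. By the structures their trimers build, 11 are fibrillar, 6 are chains of the type IV network of basement membranes, and 4 (Col7a1, Col15a1, Col17a1 and Col18a1) belong to the zone around that membrane. A further 6 are chains of type VI beaded filaments, 9 are fibril-associated, 3 form short-chain networks, 3 are transmembrane, and Col26a1 and Col28a1 stand apart from these classes.

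Expression was measured by poly(A)-selected, strand-specific RNA sequencing in 29 libraries from C57BL/6 mice, in 8 groups. In the tissue set, the H2B/p53dIEC mice 1349, 1323, 1322 and 1319 each gave 1 tumor and 1 piece of the tissue next to it, and 4 samples of H2B/p53flox/flox mice (1315, 1316, 1320 and 1321), labelled as adjacent normal tissue, served as tissue controls. The crypt set was made of crypt epithelium from 4 H2B flox/flox and 4 H2BdIEC mice, all 52 weeks old. The organoid set held 3 libraries each of controls, H2BdIEC and H2B/p53dIEC intestinal organoids. The organoid controls are titled WT but carry the genotype H2B/p53flox/flox, while the series design gives H2Bfl/fl. Titles of the controls and H2BdIEC organoids share a prefix and the letters A to C, which those of the H2B/p53dIEC organoids lack. H2B is read here as Rnaseh2b, a subunit of the enzyme that removes ribonucleotides from DNA, and dIEC as deletion in intestinal epithelial cells. Animals of the control groups carry the floxed alleles undeleted. The driver of the deletion, the age of the mice in the tissue and organoid sets, and whether organoid libraries of 1 genotype come from separate mice are not given in the sources used here, so p-values in organoids measure the spread between those libraries, which may be technical.

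Collagens are trimers of chains with long Gly-X-Y repeats. Prolyl and lysyl hydroxylases modify the chains in the endoplasmic reticulum, fibrillar procollagens lose their end peptides after secretion, and lysyl oxidases crosslink the assembled fibrils. In the intestinal wall, fibroblasts and smooth muscle make most fibrillar collagen, while the epithelium rests on a type IV basement membrane to which mesenchyme, vessels, muscle and epithelium can all contribute. RNA from a piece of tissue mixes these cells, so a lower level can mean fewer cells of a type or less RNA per cell, and these cannot be told apart here.

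Gene counts per library ran from 21884287 to 41504298 in tissue, except control 1320 with 401365, where 1 read is worth 2.67 CPM (counts scaled within each set to a library of 1000000) and a count of 0 allows up to 8.01 CPM, counting error only. Crypt libraries held 15545059 to 25913155 counts and organoid libraries 5774771 to 21386586. The targeted gene Rnaseh2b had 2.13 to 2.71 CPM in H2BdIEC crypts against 6.87 to 14.4 in crypt controls, and 1.08 to 7.04 in the deleted organoids against 14.8 to 18.3 in organoid controls. In adjacent tissue and tumors it had 2.49 to 6.19 CPM against 12.8 to 24.1 in tissue controls. Trp53, deleted in H2B/p53dIEC, had 9.95 to 11.7 CPM in those organoids against 98.2 to 115 in organoid controls. Epithelial markers (8 genes, among them Epcam and Vil1) were present in each group, with sums of 13765 to 22004 CPM in tissue controls and adjacent tissue, 6273 to 10450.4 in tumors, 8913 to 10654 in crypts and 6452 to 7059 in organoids. Of 10 fibroblast markers, 5 were at 0 in organoid controls, Lum and Dcn among them, and the sum there was 0.479 to 1.08 CPM.

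Sequences around the transcription start of 5 collagens are shown because each of these genes was higher in tumors and because they stand for different classes and layouts. Windows of 300 bases, 250 before the start and 50 from the start on, came from RefSeq (GRCm38.p6), where 35 of the 44 members matched, with 38 windows. Col1a1, Col2a1, Col4a3, Col5a2, Col9a3, Col12a1, Col14a1, Col22a1 and Col26a1 had no entry. Capitals mark matches on either strand to 4 motifs. The CCAAT box has the letters of its name, the GC box was searched as GGGCGG, the TATA element as TATAAA and the core bound by SOX factors as AACAAT. The Col1a2 window is chr6:4505368-4505667 (+ strand), the Col3a1 window chr1:45311288-45311587 (+), the Col4a2 window chr8:11312555-11312854 (+), the Col7a1 window chr9:108953336-108953635 (+) and the Col9a2 window chr4:121039316-121039615 (+).
Col1a2: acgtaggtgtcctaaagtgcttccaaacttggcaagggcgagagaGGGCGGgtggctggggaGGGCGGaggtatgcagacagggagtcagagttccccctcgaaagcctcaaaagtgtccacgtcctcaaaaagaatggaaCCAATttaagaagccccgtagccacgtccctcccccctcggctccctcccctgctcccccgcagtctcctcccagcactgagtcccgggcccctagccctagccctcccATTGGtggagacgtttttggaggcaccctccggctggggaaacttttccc
Col3a1: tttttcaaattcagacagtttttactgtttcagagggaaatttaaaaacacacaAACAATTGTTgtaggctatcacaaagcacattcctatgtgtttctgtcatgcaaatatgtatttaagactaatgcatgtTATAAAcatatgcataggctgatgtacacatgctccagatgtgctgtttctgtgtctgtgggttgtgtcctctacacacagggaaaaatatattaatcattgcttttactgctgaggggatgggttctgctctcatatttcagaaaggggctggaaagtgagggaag
Col4a2: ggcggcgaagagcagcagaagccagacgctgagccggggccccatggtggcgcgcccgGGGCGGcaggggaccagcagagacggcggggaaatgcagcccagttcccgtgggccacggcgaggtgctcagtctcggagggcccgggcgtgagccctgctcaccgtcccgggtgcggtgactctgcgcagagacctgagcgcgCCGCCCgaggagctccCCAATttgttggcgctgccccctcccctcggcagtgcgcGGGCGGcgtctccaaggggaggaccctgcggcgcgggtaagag
Col7a1: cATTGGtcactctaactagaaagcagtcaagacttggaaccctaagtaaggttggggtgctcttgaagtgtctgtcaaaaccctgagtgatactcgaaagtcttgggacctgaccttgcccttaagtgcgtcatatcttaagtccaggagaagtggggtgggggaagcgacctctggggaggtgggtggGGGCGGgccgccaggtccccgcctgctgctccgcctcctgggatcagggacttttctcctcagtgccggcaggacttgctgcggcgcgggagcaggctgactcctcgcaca
Col9a2: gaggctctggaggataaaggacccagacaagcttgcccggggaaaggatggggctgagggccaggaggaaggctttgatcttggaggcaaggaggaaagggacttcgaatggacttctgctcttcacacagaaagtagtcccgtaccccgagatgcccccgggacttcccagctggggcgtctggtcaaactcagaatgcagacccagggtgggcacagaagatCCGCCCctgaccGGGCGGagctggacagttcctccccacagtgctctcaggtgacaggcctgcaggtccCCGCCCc

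The Col1a2 window held 2 CCAAT boxes and 2 GC boxes, and the Col3a1 window held none of either, but 1 TATA element and 2 overlapping SOX cores. The Col4a2 window held 1 CCAAT box and 3 GC boxes, the Col7a1 window 1 of each, and the Col9a2 window 3 GC boxes. Over the 38 collagen windows, 60.5% held a GC box against 35.7% of all 32851 windows in the table, 34.2% held a CCAAT box against 37.4%, 13.2% a TATA element against 13.6%, and 2.63% a SOX core against 10.7%. GC boxes were present in 6 of 8 windows of fibrillar genes and in 4 of 5 windows of type IV genes. The type IV genes lie in head-to-head pairs. In the GENCODE M21 annotation, Col4a1 (chr8:11198423-11312826, - strand) and Col4a2 (chr8:11312805-11449287, + strand) share 22 bases of exon on opposite strands, so that the Col4a2 window above also covers the start of Col4a1. Col4a4 and Col4a3 are separated by 71 bases on chromosome 1, and Col4a6 and Col4a5 by 1308 bases on the X chromosome.

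**Figure D1:**
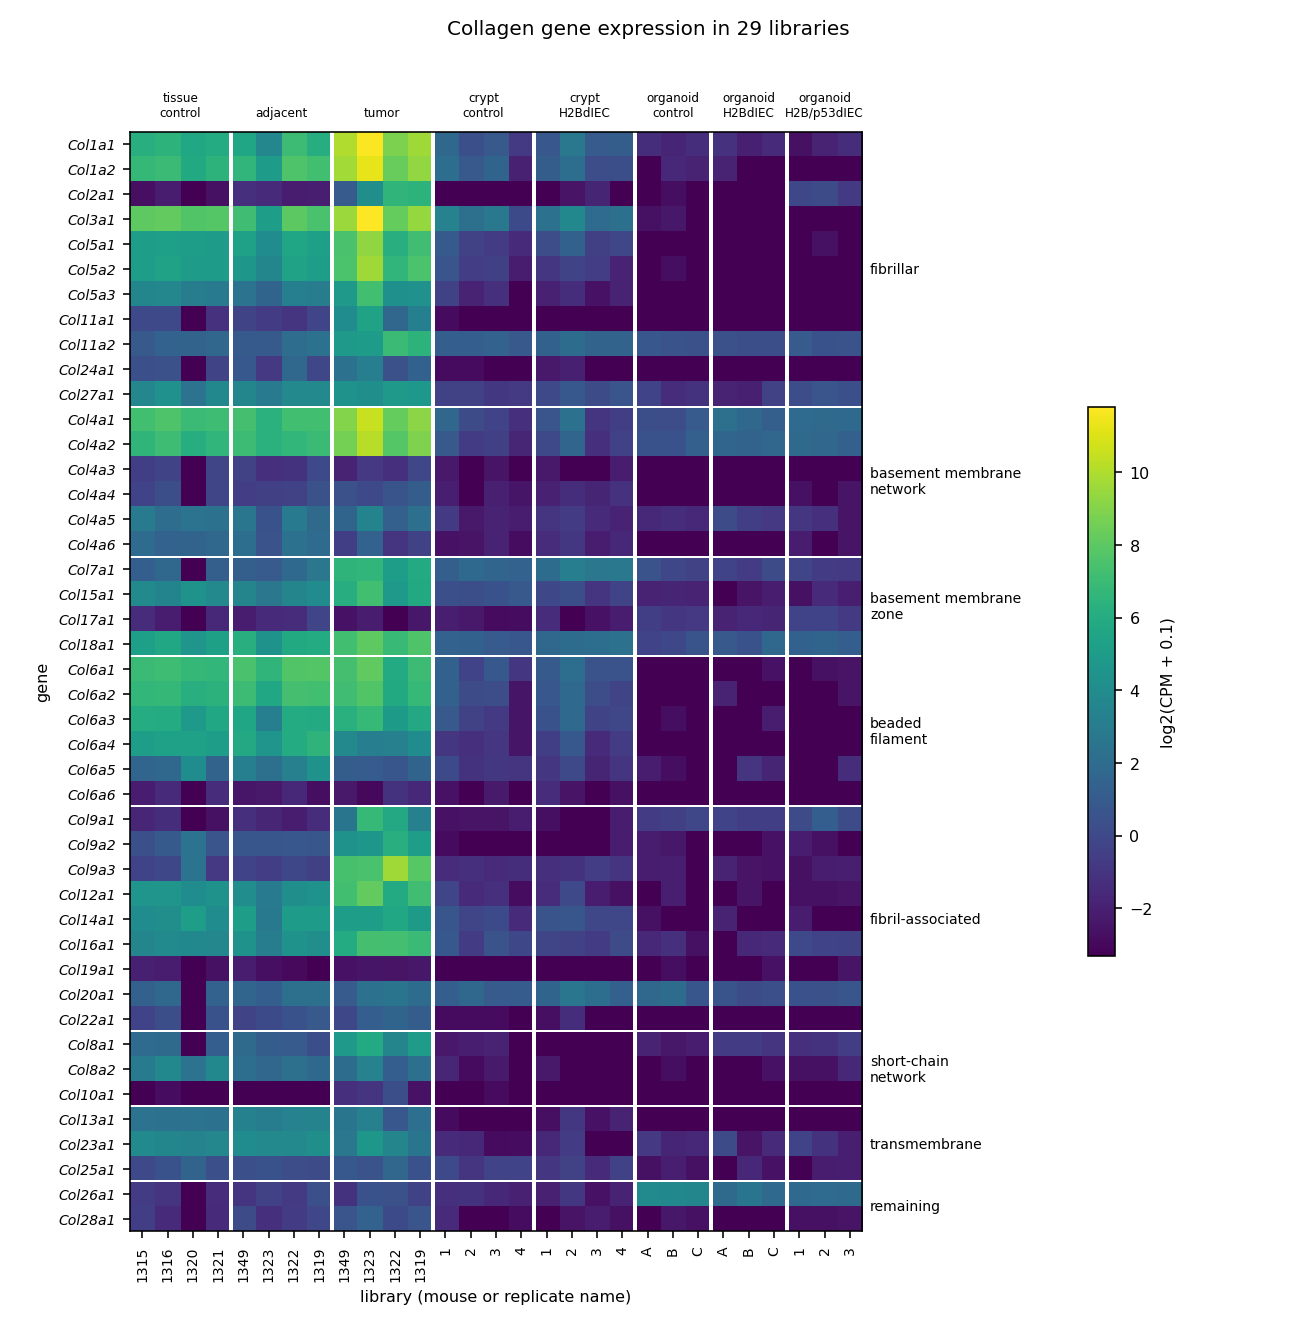
Expression of the 44 collagen genes (rows, grouped by class) in the 29 libraries (columns, grouped by set and genotype) as log2(CPM + 0.1), colour from dark (low) to yellow (high). The columns of tumors 1349, 1323 and 1319 are brightest for Col1a1, Col1a2, Col3a1 and Col4a1, and that of tumor 1322 for Col9a3. The crypt and organoid columns are dark for nearly all rows.

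The comparison of tumors with adjacent tissue of the same mice asks how the matrix genes of the tumors differ from those of the surrounding wall. Of the 44 collagens, 40 passed the low-count filter, 22 were higher in tumors, 3 were lower and 15 were not called at an adjusted p under 0.05. Of the 22, Col2a1 and Col9a1 passed the filter only through the tumors, where they are high, so their calls are no support. Over all genes tested in this comparison, 46.9% were called, 23.0% higher and 24.0% lower. The median log2 fold change was 1.61 over the 40 collagens and -0.00247 over all genes tested. Fibrillar genes were higher for 10 of 11, basement membrane genes for 5 of 9 tested, with 1 lower, and the remaining collagens for 7 of 20 tested, with 2 lower. With mouse as a block, 17 collagens were higher and 2 lower, and without tumor 1323 22 were higher and 5 lower. The collagens together took 0.364% to 1.57% of the scaled counts in tumors, 0.0563% to 0.167% in adjacent tissue and 0.102% to 0.148% in tissue controls.

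Type I collagen, the main fibril former of most connective tissue, is built of 2 Col1a1 chains and 1 Col1a2 chain. Col1a1 (chr11:94936224-94953042, + strand) had 1026, 3310.2, 459 and 799 CPM in the tumors of mice 1349, 1323, 1322 and 1319, and 49.9, 12.8, 135 and 68.9 CPM in their adjacent tissue. Tissue controls 1315, 1316, 1320 and 1321 had 74.2, 89.5, 50.8 and 64.4 CPM. Each tumor lay above each of the other 8 tissue libraries, and mouse 1323 had both the highest tumor value and the lowest adjacent value. The rise over adjacent tissue was 4.39 ± 0.75 on the log2 scale (SE, n = 4 and 4, adjusted p = 6.28e-04), or 21-fold. It was 3.51 without tumor 1323 and 4.99 without adjacent 1322. Col1a2 had 831, 2439, 313 and 649 CPM in tumors, 100.2, 31.3, 199 and 147 in adjacent tissue, and 107, 127, 58.8 and 87.6 in controls. Its rise was 3.15 ± 0.65 (adjusted p = 0.00216), and with mouse as a block 2.85 with an adjusted p of 0.0733, which is not called. Without tumor 1323 it was 2.33 (adjusted p = 0.00459).

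Col3a1, the single chain of type III collagen of distensible tissues such as gut wall and vessels, was the most abundant fibrillar gene of the controls, at 268, 283, 211 and 224 CPM. Adjacent tissue had 141, 34.6, 252 and 175 CPM, and tumors 727, 3584, 299 and 683 CPM, in the mouse order above. Tumors and adjacent tissue did not overlap, but the lowest tumor was close to the highest adjacent sample. The rise was 3.13 ± 0.74 (adjusted p = 0.00469). It was 2.49 with an adjusted p of 0.132 with mouse as a block, and 1.92 to 3.49 when 1 library was left out, lowest without tumor 1323.

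Type V and type XI collagens copolymerise with the major fibrils and set their number and width. Col5a2 had 181, 814, 98.7 and 185 CPM in tumors and 25.3, 12.4, 41.2 and 34.4 in adjacent tissue, a rise of 3.50 ± 0.61 (adjusted p = 7.41e-04). Its partner Col5a1 had 177, 618, 71.5 and 146 CPM in tumors against 39.6, 16.0, 46.7 and 36.6, a rise of 2.87 ± 0.56 (adjusted p = 0.00159). The third chain, Col5a3, had 28.7, 150.0, 19.1 and 20.4 CPM in tumors against 5.34, 2.88, 9.09 and 8.31, a rise of 3.08 ± 0.66 (adjusted p = 0.00261). For the 3 genes tumors lay above adjacent tissue without overlap, and tumor 1323 was far above the other tumors. Without it the rises were 2.45 for Col5a2, 1.92 for Col5a1 and 1.82 for Col5a3, all still called. The calls of Col5a1 and Col5a3 were lost with mouse as a block (2.36, adjusted p = 0.0656, and 2.40, adjusted p = 0.0743).

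The type XI chains, better known from cartilage, were low outside tumors. Col11a1 had 16.2, 42.2, 3.03 and 9.19 CPM in tumors and 0.399 to 0.781 in adjacent tissue, a rise of 4.84 ± 0.73 (adjusted p = 2.84e-04), or 3.95 without tumor 1323. Col11a2 had 29.4, 32.0, 129.6 and 88.6 CPM in tumors and 1.83 to 4.82 in adjacent tissue, a rise of 4.46 ± 0.54 (adjusted p = 8.01e-05). The partners were not in step: Col11a1 was highest in tumor 1323 and lowest in tumor 1322, and Col11a2 was highest in tumor 1322 and lowest in tumor 1349. Col2a1, the fibrillar collagen of cartilage, had 1.97, 17.5, 95.8 and 86.5 CPM in tumors. These rested on 58, 640, 2652 and 2710 reads, against 3 to 7 reads in adjacent libraries, and the rise was 7.92 ± 1.10 (adjusted p = 1.69e-04). Tumors 1322 and 1319 carried most of the Col2a1 signal. The gene passed the low-count filter only through the tumors, so its call is no support.

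Among the other fibrillar genes, Col27a1 had 22.0, 18.1, 29.6 and 26.3 CPM in tumors and 7.7 to 13.9 in adjacent tissue, the smallest rise among the fibrillar calls at 1.01 ± 0.28 (adjusted p = 0.0106). Col24a1, a minor fibrillar chain, had 5.09, 8.67, 1.23 and 2.46 CPM in tumors against 1.71, 0.472, 3.26 and 0.827. The groups overlapped and the difference of 1.46 ± 0.64 was not called (adjusted p = 0.0773), though it was when tumor 1322 or adjacent 1322 was left out (adjusted p down to 0.0264).

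Fibroblast markers were counted beside these genes. Of 10 such markers, 5 were higher and 2 lower in tumors than in adjacent tissue, where 23.0% of all genes were higher and 24.0% lower. Their sums were 277 to 1525 CPM against 225 to 439.9. Of 8 markers of activated fibroblasts, 7 were higher, with sums of 232 to 1926 CPM in tumors against 225 to 348 in adjacent tissue. Both sums were highest in tumor 1323 and lowest in tumor 1322, as was the sum of the fibrillar collagens, 11034 and 1519 CPM. Tumor 1322 lay within the range of adjacent tissue for both marker sums, but above it for the fibrillar sum. Their part in the collagen values was not tested.

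**Figure D2:**
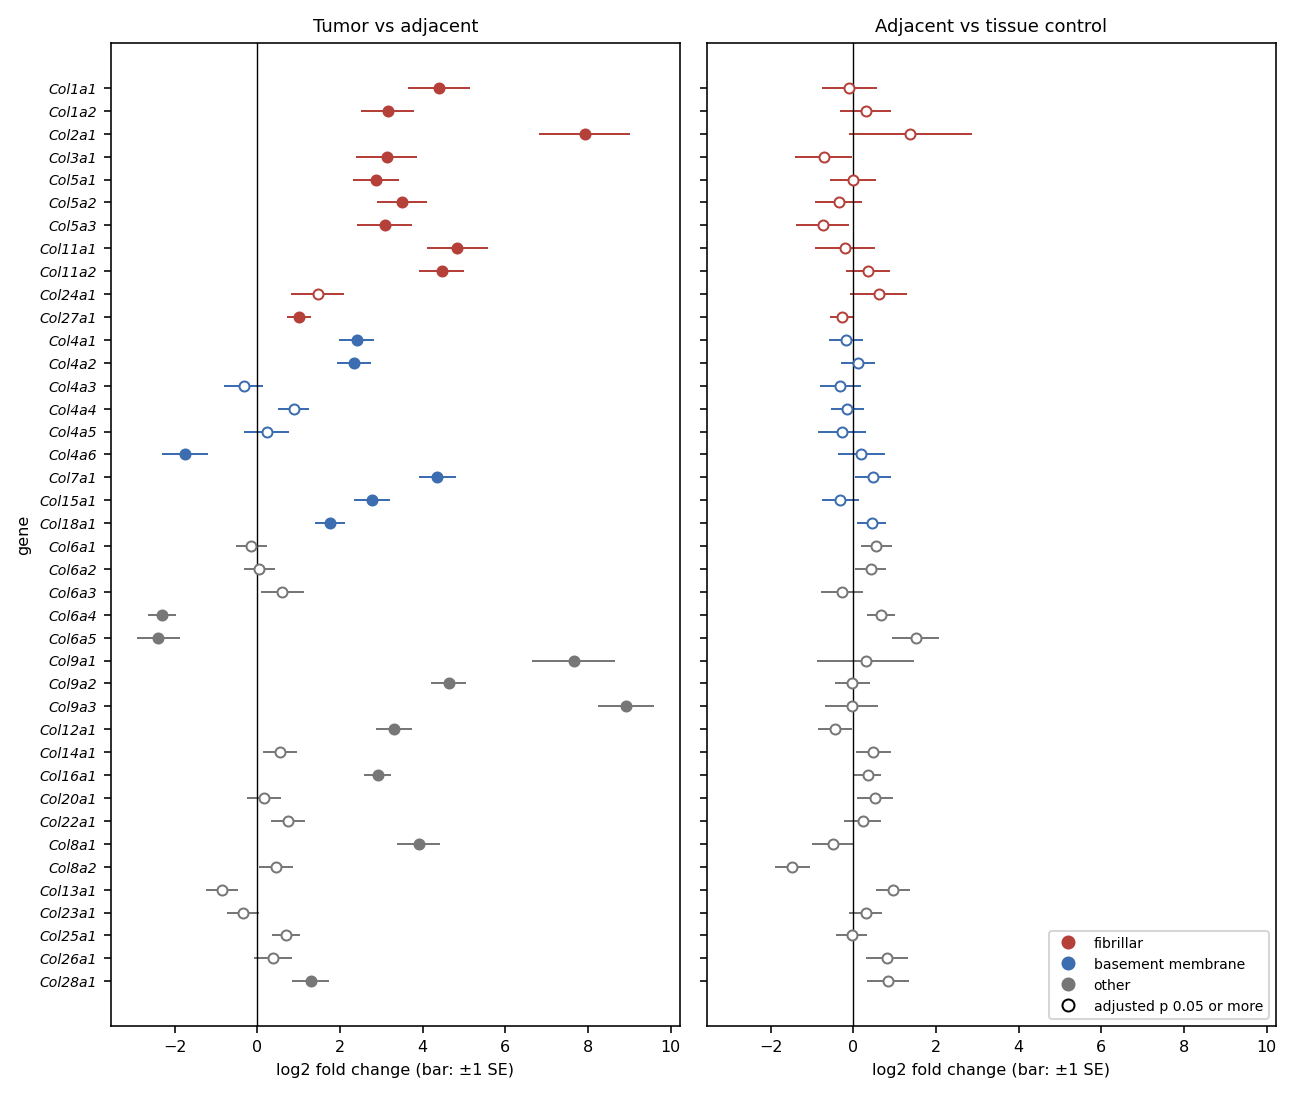
Log2 fold changes (points, with bars of 1 SE) of the 40 collagens tested in tissue, for tumors against adjacent tissue (left) and adjacent tissue against tissue controls (right), with 4 libraries a group. Filled points have an adjusted p under 0.05: 25 on the left, where most fibrillar genes lie above 2, and 0 on the right.

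Type IV collagen is the scaffold of basement membranes, with Col4a1 and Col4a2 in nearly all of them and Col4a3 to Col4a6 in a few. Col4a1 had 518, 1484, 301 and 572 CPM in tumors, 162, 81.3, 148 and 152 in adjacent tissue, and 150.3, 196, 126 and 136 in controls. The rise over adjacent tissue was 2.40 ± 0.43 (adjusted p = 7.83e-04). Col4a2 had 397, 1166, 227 and 463 CPM in tumors against 130.2, 82.5, 103 and 129, a rise of 2.34 ± 0.42 (adjusted p = 8.94e-04). Per kilobase of exon, Col4a1 was at 1.1 to 1.18 times Col4a2 in tumors, within the 0.873 to 1.28 of adjacent tissue and below the 1.19 to 1.6 of controls. Without tumor 1323 the rises of Col4a1 and Col4a2 were 1.77 and 1.71, both still called.

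None of the other type IV chains was called higher with all libraries in. Col4a6, found in basement membranes around smooth muscle, had 0.611, 2.56, 0.397 and 0.702 CPM in tumors against 4.36, 1.36, 5.04 and 3.77 in adjacent tissue, lower by -1.75 ± 0.56 on the log2 scale (adjusted p = 0.0211). In mouse 1323 the tumor lay above its adjacent tissue, and the call was lost with mouse as a block (-2.12, adjusted p = 0.106) and without tumor 1349, tumor 1319 or adjacent 1322 (up to an adjusted p of 0.0582). Fitting only tumors and adjacent tissue, without a block, gave -1.78 (adjusted p = 0.0516), which is not called either. Without tumor 1323 it was -2.66 (adjusted p = 0.000865). The 9 smooth muscle markers were all lower in tumors, where 24.0% of all genes were lower. Their sums were 322 to 872 CPM against 3034 to 4493 in adjacent tissue, and their part in the Col4a6 value was not tested. Its partner Col4a5 had 2.82, 11.2, 2.35 and 4.63 CPM in tumors against 5.93, 1.31, 7 and 3.58, a difference of 0.23 ± 0.54 that was not called. Col4a3 and Col4a4, with 0.17 to 0.83 and 0.9 to 2.14 CPM in tumors, were not called either (-0.33 ± 0.48 and 0.88 ± 0.37). Col4a4 was called higher without tumor 1323 (1.05, adjusted p = 0.0416) or adjacent 1319 (1.19, adjusted p = 0.0283).

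Around the basement membrane, the rise of Col7a1 was largest. This gene encodes the anchoring fibrils that tie epithelial basement membrane to the stroma below. It had 90.4, 99.8, 36.3 and 60.7 CPM in tumors, 2.34, 1.89, 3.56 and 6.29 in adjacent tissue, and 0 to 3.39 in controls, a rise of 4.35 ± 0.45 (adjusted p = 2.90e-05). Col15a1, a multiplexin of vessel and muscle basement membranes, had 69.6, 152, 29.6 and 58.6 CPM against 6.29 to 15.9, a rise of 2.77 ± 0.44 (adjusted p = 4.09e-04). Col18a1, the multiplexin whose end fragment is endostatin, had 148, 264, 119 and 199 CPM against 72.6, 21.4, 57.2 and 63.5, a rise of 1.76 ± 0.36 (adjusted p = 0.00177). None of these 3 genes had overlapping groups, and the calls held with mouse as a block. Col17a1, of hemidesmosomes, had 0 to 5 reads per tumor and was not tested. Endothelial markers were higher for 3 of 8 in tumors, where 23.0% of all genes were higher. Their sums were 152 to 341 CPM against 133 to 195, and their part was not tested.

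**Figure D3:**
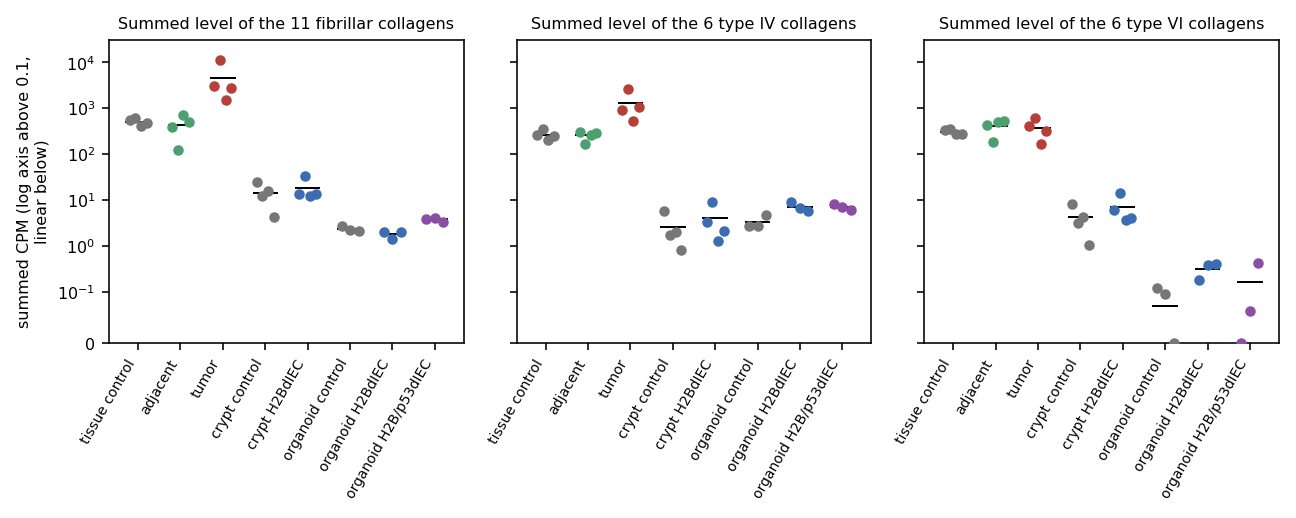
Summed CPM of the fibrillar, type IV and type VI collagens in each library (points, coloured by group) with the group mean (line), on an axis that is logarithmic above 0.1 and linear below. Fibrillar sums reach 1519 to 11034 in tumors against 121 to 705 in adjacent tissue, while type VI sums of 162 to 607 in tumors overlap the 187 to 537 of adjacent tissue.

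Fibril-associated collagens decorate fibrils. The 3 type IX chains, known from the surface of cartilage fibrils, were all higher in tumors. Col9a3 (chr2:180597790-180622189, + strand) had 167, 179, 801 and 231 CPM in tumors and 0.719, 0.576, 0.86 and 0.643 in adjacent tissue, a rise of 8.92 ± 0.67 (adjusted p = 5.89e-06), or 484-fold, the largest rise among the collagens. Without tumor 1322 it was 8.08. These values rested on 4931 to 22163 reads per tumor and 11 to 28 per adjacent library. An antisense gene, Tcfl5, shares 234 exonic bases with Col9a3 and had at most 0.409 CPM in any tissue library. Col9a2 had 20.7, 25.3, 75.4 and 33.8 CPM in tumors against 1.53 to 1.6, a rise of 4.63 ± 0.43 (adjusted p = 1.60e-05). Col9a1 had 5.74, 113, 55.3 and 9.67 CPM against 0.123 to 0.314, a rise of 7.65 ± 1.01 (adjusted p = 1.29e-04), or 6.68 without tumor 1323. It passed the low-count filter only through the tumors, so its call is no support. The chains were not in step: per kilobase of exon, tumor 1322 had 208 CPM of Col9a3, 24.4 of Col9a2 and 10.9 of Col9a1, and tumor 1323 had 46.6, 8.18 and 22.3. Tumor 1322 was highest for Col9a2 and Col9a3, and tumor 1323 for Col9a1.

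Other genes known from cartilage were looked at after the collagen values had been seen. Comp, a pentameric matrix protein, had 14.1, 8.24, 244 and 40.7 CPM in tumors and 0 to 0.491 in adjacent tissue. Chad, chondroadherin, had 19.2, 5.59, 45.1 and 49.8 CPM against 0.419 to 1.97, and Sox9, a factor of chondrocytes and of intestinal crypts, 112, 67.2, 204 and 129.7 against 7.12 to 24.8. Acan, the main cartilage proteoglycan, had 0.0679, 0.136, 1.3 and 1.21 CPM in tumors against 0 to 0.0898 in adjacent tissue, with overlap. Snorc, Matn3 and Sox5 were higher in each tumor than in each adjacent library. Hapln1 had 0.034 to 0.191 CPM in tumors, below the 0.21 to 0.735 of adjacent tissue. Sox6 was lower in the tumors of mice 1349, 1323 and 1322 than in their adjacent tissue, but not in mouse 1319. Matn1 was at 0 in both groups. Of 10 such genes 7 were tested, 5 were higher and 2 lower, but the list was chosen with these data in view and is no independent evidence.

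Col12a1, a fibril-associated collagen of stressed and repairing tissue, had 152, 285, 59.9 and 145 CPM in tumors against 17.3, 7.65, 18.1 and 21.8, a rise of 3.31 ± 0.43 (adjusted p = 1.18e-04). Its relative Col14a1 had 34.4, 36.3, 53.8 and 30.0 CPM against 35.0, 6.81, 31.9 and 32.1, overlapping and not called (0.54 ± 0.41). Col16a1, made by fibroblasts and some epithelia, had 63.1, 165, 155 and 126 CPM against 8.33 to 21.3, a rise of 2.91 ± 0.33 (adjusted p = 4.73e-05). Col20a1 and Col22a1 were not called (0.16 ± 0.41 and 0.74 ± 0.41), and Col19a1, with 2 or 3 reads per tumor, was not tested.

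Type VI collagen forms beaded filaments of 1 Col6a1, 1 Col6a2 and 1 Col6a3 chain next to cells and basement membranes, and this trimer was not called. Col6a1 had 162, 277, 61.9 and 130.4 CPM in tumors and 178, 94.9, 210.2 and 213 in adjacent tissue (-0.14 ± 0.37, adjusted p = 0.779). Col6a2 had 142, 206, 58.4 and 111 CPM against 130.1, 54.4, 165 and 149.9 (0.05 ± 0.37), and Col6a3 79.0, 113, 30.8 and 55.8 against 48.6, 9.28, 63.5 and 61.0 (0.61 ± 0.51). The groups overlapped for each chain. Tumor 1322 was lowest and tumor 1323 highest among tumors, while adjacent 1323 was lowest in its group.

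Among the alternative chains that can take the place of Col6a3, Col6a4 and Col6a5 were lower in tumors than in adjacent tissue. Col6a4 had 13.9, 8.7, 9.43 and 16.0 CPM in tumors, 55.6, 24.1, 63.6 and 92.3 in adjacent tissue, and 34.3 to 40.2 in controls, lower by -2.30 ± 0.34 (adjusted p = 2.27e-04). Col6a5 had 2.07, 1.99, 1.55 and 2.78 CPM against 8.98, 4.61, 9.4 and 21, lower by -2.39 ± 0.52 (adjusted p = 0.00286). Controls 1315, 1316 and 1321 had 2.94, 3.17 and 2.72 CPM of Col6a5, below each adjacent sample. Control 1320 had 16.0 CPM, on 6 reads. Neither gene overlapped between tumors and adjacent tissue, and both calls held with mouse as a block. Col6a6 had 1 to 10 reads per tumor and was not tested.

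Of the short-chain collagens, Col8a1, found in vessel walls, had 29.6, 59.6, 11.5 and 31.3 CPM in tumors against 3.68, 2.1, 1.93 and 1.15, a rise of 3.90 ± 0.52 (adjusted p = 1.30e-04). Its partner Col8a2 had 3.94, 10.2, 2.24 and 4.76 CPM against 4.4, 3.09, 4.76 and 3.17, overlapping and not called (0.45 ± 0.42). Col10a1, known from hypertrophic cartilage, was not tested. Its reads numbered 9, 14, 32 and 2 in tumors, 0 in each adjacent library and 1 over the 4 controls. The transmembrane collagens Col13a1, Col23a1 and Col25a1 were not called (-0.86 ± 0.39, -0.35 ± 0.39 and 0.69 ± 0.34). Without tumor 1323, Col13a1 was lower by -1.29 and Col23a1 by -0.99 (adjusted p = 0.0133 and 0.00931). Col28a1 had 1.46, 2.59, 0.939 and 1.5 CPM in tumors against 0.988, 0.314, 0.522 and 0.827, with overlap. Its rise of 1.29 ± 0.44 (adjusted p = 0.0294) was lost with mouse as a block (1.22, adjusted p = 0.105) and without adjacent 1323, adjacent 1322 or tumor 1323. Col26a1 was not called (0.38 ± 0.45).

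Adjacent tissue was then compared with tissue controls. None of the 40 collagens tested was called by edgeR, where 1.07% of all genes were, 0.792% higher and 0.277% lower. At an unadjusted p under 0.05, 2 were higher and 1 lower. By DESeq2, 1 was lower and 0 were higher. The sums of fibrillar collagens were 379, 121, 705 and 491 CPM in adjacent tissue and 549, 616, 404 and 467 in controls, overlapping, with a wider spread in adjacent tissue (SD 243 against 92.9). Col8a2 had 3.09 to 4.76 CPM in adjacent tissue and 5.35 to 13.4 in controls, without overlap (-1.47 ± 0.43, adjusted p = 0.106). Col13a1 had 7.97 to 10.9 CPM against 4.81 to 5.39 (0.96 ± 0.42, adjusted p = 0.264). Both were called when only these 2 groups were fitted. Control 1320 had 2 reads for each of these genes, and its 5.35 CPM, the lowest control value for Col8a2, lies under the 8.01 CPM that a count of 0 allows there.

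Against tissue controls, with which the tumors do not share animals, 23 collagens were higher and 2 lower (54.6% of all genes were called, 28.6% higher and 26.1% lower). This comparison uses the same 4 tumors as that with adjacent tissue. Here too Col2a1 and Col9a1 were tested only because of the tumors, and their higher calls are no support. All 11 fibrillar genes were higher, with Col24a1 added at 2.08 ± 0.71 (adjusted p = 0.0245), a call lost without tumor 1323 or without control 1315, 1316 or 1321 (up to an adjusted p of 0.0813). The rise of Col3a1 was 2.42 ± 0.72 (adjusted p = 0.0132) and became 1.20 with an adjusted p of 0.0653 without tumor 1323. Without that tumor 21 collagens were higher and 4 lower, with Col8a2 and Col23a1 added among the lower (-1.55 and -0.69), and Col1a1, Col1a2, Col5a1, Col5a2 and Col5a3 were higher by 3.42, 2.63, 1.92, 2.10 and 1.09. Col27a1 (0.75 ± 0.29, adjusted p = 0.0407) lost its call when tumor 1349, 1322 or 1319 or control 1315, 1320 or 1321 was left out, with adjusted p up to 0.101. Col4a1, Col4a2, Col7a1, Col15a1 and Col18a1 were higher by 2.23, 2.45, 4.82, 2.46 and 2.22, and Col4a1 and Col4a2 by 1.60 and 1.82 without tumor 1323. Col14a1 was not called (1.03 ± 0.44, adjusted p = 0.0608), but was without control 1320 (1.19, adjusted p = 0.0416), by DESeq2, with DESeq2 size factors and when only these groups were fitted. Col26a1 (1.20 ± 0.50, adjusted p = 0.0591) was called under both other scalings and without tumor 1349. Col22a1 was called without tumor 1349 as well (1.22, adjusted p = 0.0274), and Col8a2 without control 1320 (-1.12, adjusted p = 0.0498). Col6a4 and Col4a6 were lower by -1.63 ± 0.34 and -1.55 ± 0.58 (adjusted p = 0.00151 and 0.0361), and the Col4a6 call was lost without tumor 1349, 1322 or 1319 or control 1315, 1316 or 1321. Col6a5 had 2.72 to 3.17 CPM in controls 1315, 1316 and 1321 and 16.0, on 6 reads, in control 1320. It was not called here.

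The make-up of the fibrillar collagens differed between the groups, given as ratios of CPM per kilobase of exon and described without a test. Col3a1 was at 2.42, 2.12, 2.78 and 2.32 times Col1a1 in controls, 1.89, 1.81, 1.25 and 1.7 times in adjacent tissue, and 0.474, 0.724, 0.435 and 0.572 times in tumors. The 3 groups did not overlap. Col1a1 was at 2.33 to 2.77 times Col1a2 in tumors, 1.32 to 1.64 in controls and 0.774 to 1.28 in adjacent tissue. The exonic length used for Col1a2, 12426 bases over all annotated transcripts, is long for its messenger RNA and raises these ratios equally in all libraries. Col1a1 took 29.6% to 33.7% of the fibrillar CPM in tumors, 10.6% to 19.2% in adjacent tissue and 12.6% to 14.5% in controls. Fibrillar collagens together were at 2.58 to 4.14 times the type IV chains in tumors, 0.722 to 2.68 in adjacent tissue and 1.79 to 2.13 in controls, with overlap between tumors and adjacent tissue.

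**Figure D4:**
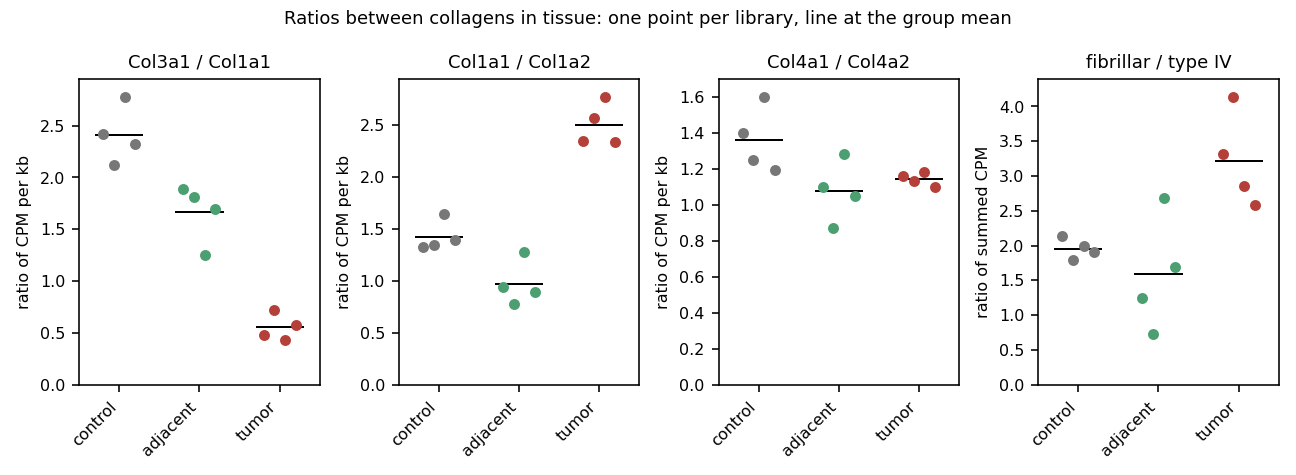
Ratios between collagens in the 12 tissue libraries (points) with group means (lines): the first 3 panels divide CPM per kilobase of exon, the fourth divides summed CPM of fibrillar by type IV genes. Tumors lie below the other groups for Col3a1 over Col1a1 (0.435 to 0.724) and above them for Col1a1 over Col1a2 (2.33 to 2.77).

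In the order of levels per kilobase of exon, Col6a1 (26.9), Col3a1 (25.1), Col4a1 (20.4) and Col4a2 (15.3 CPM per kilobase) led in controls, with overlapping ranges between neighbours. Col6a1 led adjacent tissue at 39.7, followed by Col4a1, Col4a2, Col3a1 and Col6a2 at 18.2 to 15.0, again overlapping. In tumors Col1a1 was first at 213 (69.9 to 504), then Col3a1 at 135, Col4a1 at 96.3, Col9a3 at 89.4, Col1a2 at 85.2 and Col4a2 at 85.1, all with overlapping ranges, while Col6a1 was seventh in the order at 36.0. The lengths count exons of all annotated transcripts, 12426 bases for Col1a2, and the order depends on them. By CPM, Col1a2 lay above Col4a1 in each tumor.

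The genes that modify, process and degrade collagen were counted from lists drawn up for this family. Of 20 genes for prolyl and lysyl modification and folding, 14 were higher in tumors than in adjacent tissue and 0 lower, with a median of 1.22. Over all genes, 23.0% were higher and 24.0% lower, and the counts of the lists that follow stand beside these shares. Among them were the chaperone and isomerase Fkbp10 (2.50 ± 0.38, adjusted p = 2.84e-04), the lysyl hydroxylase Plod3 (1.51 ± 0.17, adjusted p = 4.08e-05) and the prolyl hydroxylase subunit P4ha2 (2.28 ± 0.30, adjusted p = 1.10e-04). Of 12 tested genes for propeptide removal and crosslinking, 6 were higher and 0 lower, among them the lysyl oxidase Lox (3.99 ± 0.68, adjusted p = 6.44e-04) and the procollagen N-proteinase Adamts2 (3.63 ± 0.60, adjusted p = 5.18e-04). All 6 genes of collagen breakdown were higher, with the collagenase Mmp13 at 4.44 ± 0.43 (adjusted p = 1.95e-05), Mmp14 at 2.79 ± 0.24 (adjusted p = 9.48e-06) and the protease Ctsk at 3.36 ± 0.47 (adjusted p = 1.83e-04).

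The partners and receptors were mixed. Of 11 tested fibril partners, a list that shares Lum, Dcn and Dpt with the fibroblast markers, 5 were higher and 5 lower. Sparc, a collagen-binding matricellular protein, rose by 3.20 ± 0.55 (adjusted p = 6.43e-04) and lumican (Lum) by 2.98 ± 0.43 (adjusted p = 2.11e-04), while osteoglycin (Ogn) was lower by -3.73 ± 0.43 (adjusted p = 5.29e-05) and tenascin X (Tnxb) by -3.07 ± 0.47 (adjusted p = 3.00e-04). Of 9 tested receptors 2 were higher and 1 lower, a share called below the 46.9% of all genes, among them the uptake receptor Mrc2 (2.60 ± 0.55, adjusted p = 0.00243) and the collagen-binding integrin chain Itga1 (-0.97 ± 0.32, adjusted p = 0.0262).

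Crypt controls were set beside tissue controls to compare the collagen RNA of crypt preparations with that of whole tissue. The 2 sets differ in preparation, in the gene annotation used for counting and in genotype (H2B flox/flox crypts, H2B/p53flox/flox tissue), and an age is given for the crypt mice alone. These cannot be told apart from the tissue. Of 30 collagens tested, 25 were higher in whole tissue and 0 lower (0 lower also at an unadjusted p under 0.05), where 66.9% of all genes were called, 28.4% higher and 38.4% lower. The median over all genes was -0.134 under this scaling and 0.0637 under upper-quartile scaling, and the share of higher genes among calls was 42.5% and 53.6%. Of the 30, 20 also passed the filter among crypt libraries, with 16 higher. The other 10 entered through the tissue libraries, where they are high, and their 9 higher calls are no support. The collagens took 0.00167% to 0.00539% of scaled counts in crypt controls. Col4a1 and Col1a1 were higher in tissue by 6.39 ± 0.60 and 4.93 ± 0.48 (adjusted p = 4.88e-05 and 3.73e-05), and by 7.40 and 5.59 without crypt control 1.

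The 5 collagens not called between tissue and crypts were Col7a1 (-0.62 ± 0.29), Col11a2 (-0.32 ± 0.27), Col20a1 (-0.33 ± 0.30), Col25a1 (0.27 ± 0.33) and Col9a3 (0.86 ± 0.43). Col9a3 was called under upper-quartile scaling and without control 1320 or 1321. In crypt controls Col3a1 (0.098 to 1.07 CPM per kilobase), Col20a1, Col11a2, Col18a1, Col6a1 and Col7a1 had the highest levels, with overlapping ranges. Fibroblast markers summed to 11.6, 5.03, 7.84 and 1.63 CPM in crypt controls 1 to 4, and the fibrillar collagens to 25.1, 12, 15.7 and 4.31 CPM in the same order. Leukocyte markers summed to 40.1 to 76.9 CPM in crypt controls, against 2.56 to 4.36 in organoid controls. The part of cells other than epithelium in the collagen values of crypts was not tested.

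In H2BdIEC crypts, 3 of the 20 collagens tested were higher than in crypt controls and 0 lower (1 was lower at an unadjusted p under 0.05, and 3 were higher and 0 lower by DESeq2). Over all genes, 10% were called, 5.16% higher and 4.87% lower. Col7a1, of the anchoring fibrils, had 4, 8.6, 6.31 and 6.56 CPM in H2BdIEC crypts and 2.28, 3.49, 2.92 and 2.59 in controls, a rise of 1.17 ± 0.24 (adjusted p = 0.0154). Col18a1 had 3.41, 4.04, 4.38 and 4.96 CPM against 2.63, 2.45, 1.89 and 1.59, a rise of 0.97 ± 0.22 (adjusted p = 0.0218). Col27a1 had 0.92, 1.72, 1.03 and 1.48 CPM against 0.665, 0.683, 0.454 and 0.502, a rise of 1.14 ± 0.31 (adjusted p = 0.0421). For the 3 genes each H2BdIEC library lay above each control. Without control 3 only the Col7a1 call was made, and without H2BdIEC 4 none was. The Col27a1 call was lost without any 1 of controls 1, 3 and 4 or H2BdIEC 2, 3 and 4, and with no low-count filter (adjusted p = 0.0707). The highest adjusted p with 1 library left out was 0.0503 for Col7a1, 0.0756 for Col18a1 and 0.125 for Col27a1.

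The other fibrillar genes tested, Col4a1, Col4a2 and the type VI chains tested overlapped between the crypt groups. Col1a1 had 1.62, 6.66, 1.93 and 2.07 CPM in H2BdIEC crypts and 3.33, 1.19, 1.74 and 0.502 in controls (0.83 ± 0.60, adjusted p = 0.399), and Col4a1 1.46, 4.94, 0.387 and 0.591 against 3.12, 1.01, 0.72 and 0.335 (0.46 ± 0.88, adjusted p = 0.766). H2BdIEC 2 was highest for both, with a sum of all collagens of 82.9 CPM against 35.1 to 38.4 in the other H2BdIEC crypts. Markers of acinar pancreas summed to 413 CPM in that library and 19.5 to 24.3 in the other H2BdIEC crypts, all above the 4.41 to 7.95 of crypt controls, though 0 of the 6 such markers tested were called. Their part in the collagen values, the 3 calls included, was not tested. Col15a1 had 0.866, 1.12, 0.387 and 0.768 CPM against 1.19, 1.15, 1.33 and 1.76, without overlap but not called (-0.79 ± 0.33, adjusted p = 0.141). The sums of fibroblast markers were 8.05 to 10.4 CPM in H2BdIEC crypts and 1.63 to 11.6 in controls.

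Organoids grow without stroma, and their collagens were few. Of the 44 members 10 passed the filter. Col1a2 had 0 to 5 reads and Col3a1 0 to 2 reads per library, and the 6 type VI chains together had 0 to 0.432 CPM. A count of 0 in an organoid library allows up to 0.144 to 0.532 CPM. Col26a1, whose protein carries an emilin-like domain, led in organoid controls at 14.4, 13.2 and 12 CPM. It was the collagen of highest level there per kilobase of exon (1.61, against 0.573 for Col20a1 and 0.251 for Col4a2), above the others without overlap, while crypt libraries had 0.0644 to 0.449 CPM.

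In H2BdIEC organoids, 1 of the 10 collagens tested was higher than in controls and 2 were lower, where 4.06% of all genes were called, 2.08% higher and 1.97% lower. Col26a1 had 3.72, 5.75 and 3.49 CPM in replicates A, B and C, below each control, lower by -1.58 ± 0.17 (adjusted p = 2.84e-04). Col20a1, a fibril-associated collagen, had 1.42, 0.984 and 1.18 CPM against 3.36, 3.93 and 1.55, lower by -1.37 ± 0.35 (adjusted p = 0.0492), a call lost without H2BdIEC B or C, or without control A or B (adjusted p up to 0.196). Col4a1 had 4.79, 3.18 and 2.3 CPM against 1.14, 1.1 and 1.96, a rise of 1.18 ± 0.29 (adjusted p = 0.0436), lost without H2BdIEC B or without control A or B (adjusted p up to 0.178). Its partner Col4a2 had 3.01, 2.72 and 3.03 CPM against 1.32, 1.29 and 2.38, without overlap and not called (0.82 ± 0.27, adjusted p = 0.119).

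In H2B/p53dIEC organoids, 6 collagens were higher than in controls and 2 lower, where 33.3% of all genes were called, 16.7% higher and 16.6% lower. Of the 6, Col16a1, Col27a1 and Col9a1 passed the low-count filter only through the H2B/p53dIEC libraries, where they are high. Their higher calls are no support. The comparison shares its controls with that of H2BdIEC. The H2B/p53dIEC organoids are titled apart from both other groups, so a difference in origin or handling cannot be told apart from genotype. Col4a1 had 3.87, 3.69 and 3.46 CPM (1.40 ± 0.27, adjusted p = 0.00189) and Col18a1 2.52, 2.89 and 2.23 against 0.72, 0.862 and 1.43 (1.35 ± 0.33, adjusted p = 0.00816), both without overlap. Col4a2 had 3.62, 3.14 and 2.38 CPM (0.89 ± 0.25, adjusted p = 0.017), reaching the highest control, and lost its call without H2B/p53dIEC 1 or 2 or control A or B (adjusted p up to 0.0847). Col27a1 had 1.11, 1.48 and 1.22 CPM against 0.72, 0.287 and 0.357 (1.5 ± 0.41, adjusted p = 0.0146), lost without H2B/p53dIEC 2 or control B (up to 0.0762). Col16a1 had 0.921, 0.738 and 0.648 CPM against 0.24, 0.335 and 0.0595 (1.78 ± 0.49, adjusted p = 0.0141), lost without H2B/p53dIEC 1 (0.0629). Col9a1 had 1.04, 2.15 and 1.01 CPM against 0.54, 0.623 and 0.833 (1.08 ± 0.35, adjusted p = 0.0293). Its call was lost without H2B/p53dIEC 2 or control A or B (up to 0.199) and by DESeq2 (0.0829). Without H2B/p53dIEC 2, 3 collagens were higher.

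Col26a1 had 3.56, 3.81 and 3.67 CPM in H2B/p53dIEC organoids, lower than controls by -1.84 ± 0.17 (adjusted p = 8.87e-06) without overlap. Col20a1 had 1.29, 1.23 and 1.58 CPM, overlapping control C, and was lower by -1.13 ± 0.31 (adjusted p = 0.0152), a call lost without H2B/p53dIEC 1 or 2 or control B (adjusted p up to 0.0862). Col7a1, which rose in H2BdIEC crypts, had 0.799, 0.554 and 0.504 CPM in H2B/p53dIEC, 0.709, 0.53 and 1.05 in H2BdIEC and 1.38, 0.814 and 0.655 in control organoids. Col11a2 had 1.12 to 1.9 CPM over the 9 organoid libraries. Neither gene was called in organoids, and the difference in Col7a1 between crypts and organoids was not tested.

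Between H2B/p53dIEC and H2BdIEC organoids, 3 collagens were higher and 0 lower (0 lower also at an unadjusted p under 0.05, and 2 higher and 0 lower by DESeq2), where 29.3% of all genes were called, 13.9% higher and 15.4% lower. By edgeR they were Col16a1 (1.88 ± 0.57, adjusted p = 0.0254), Col27a1 (1.73 ± 0.48, adjusted p = 0.0182, and 2.93 without H2BdIEC C) and Col9a1 (1.18 ± 0.39, adjusted p = 0.0395). DESeq2 did not call Col16a1 or Col9a1 (adjusted p = 0.0618 and 0.0884), so its 2 higher calls are not both among these 3. All 3 genes passed the low-count filter only through the H2B/p53dIEC libraries, where they are high, so their calls are no support. None of the 3 had overlapping groups, and without H2B/p53dIEC 2 none was called. Here too the titles set the groups apart, and origin or handling cannot be told apart from genotype. Col26a1 and the Col4a1 and Col4a2 pair were not called between the deleted genotypes (-0.25 ± 0.20, 0.22 ± 0.26 and 0.07 ± 0.25). Col2a1 was below the filter, with 14, 16 and 7 reads in the H2B/p53dIEC organoids and 0 or 1 in the other 6 organoid libraries.

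**Figure D5:**
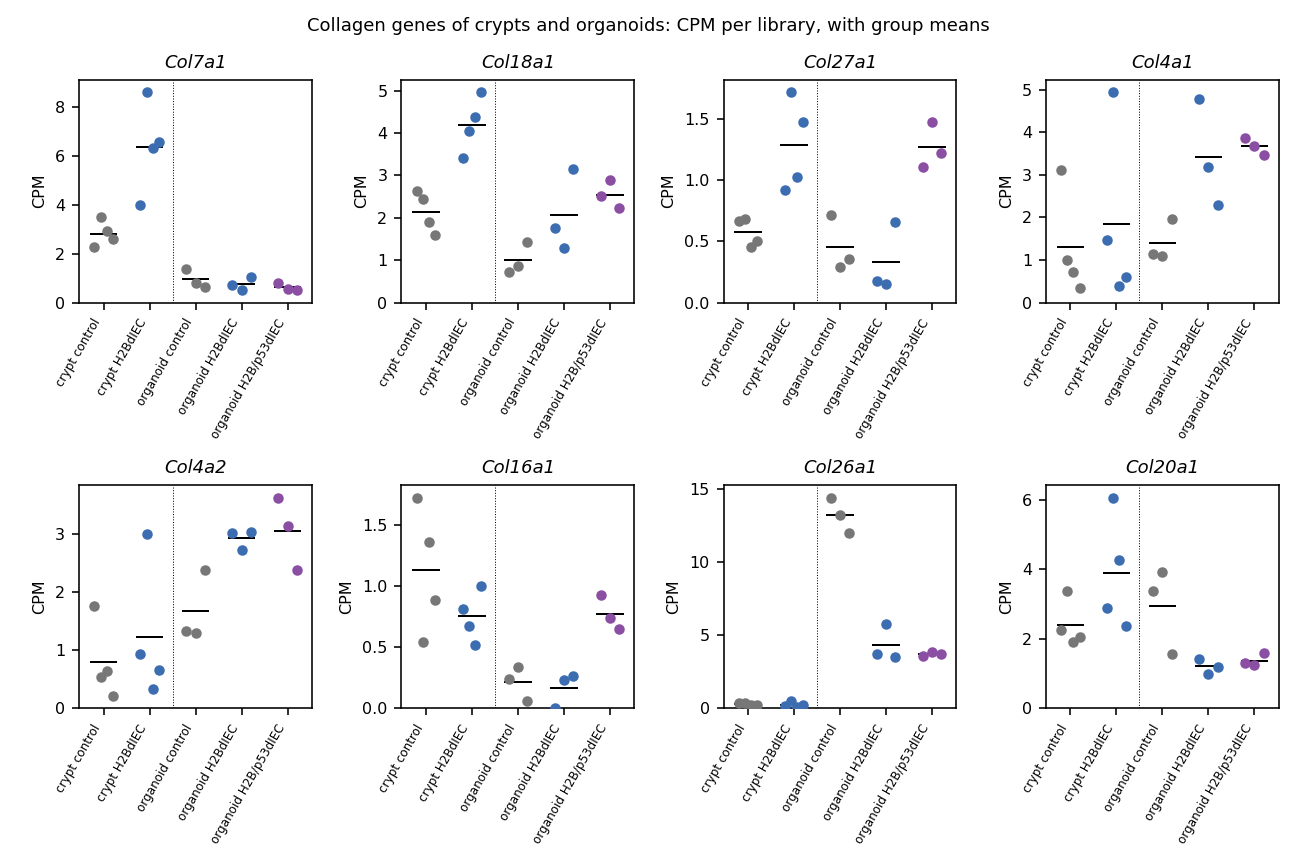
CPM of 8 collagens in the crypt libraries (left of the dotted line) and organoid libraries (right), with 1 point a library and the group mean as a line. Col7a1, Col18a1 and Col27a1 are higher in each H2BdIEC crypt than in each crypt control, and Col26a1 lies at 12 to 14.4 in organoid controls against 3.49 to 5.75 in the deleted organoids.

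In H2B/p53dIEC organoids, of 15 tested genes for prolyl and lysyl modification, 0 were higher and 4 lower against controls, where 33.3% of all genes were called and 16.6% were lower, with the prolyl hydroxylase subunits P4ha2 at -1.76 ± 0.09 (adjusted p = 1.30e-07) and P4ha1 at -1.63 ± 0.09 (adjusted p = 1.43e-07). In H2BdIEC crypts 0 of 14 were called by edgeR in either direction, where 10% of all genes were. Among fibril partners the crypts had Podn higher (1.04 ± 0.24, adjusted p = 0.0293) and Prelp lower (-1.07 ± 0.22, adjusted p = 0.016), and H2B/p53dIEC organoids had Prelp higher than controls (2.70 ± 0.23, adjusted p = 5.66e-06).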

How the data were processed

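The values are raw gene counts that the authors deposited, 1 table per library, from TruSeq stranded mRNA libraries per the labels' protocols. The submitters' processing notes name cutadapt 1.5 and 1.9, Trimmomatic 0.36, TopHat2 2.0.14, HTSeq and GRCm38. Their settings, HTSeq's strand option included, are not given in the sources used here. Ensembl IDs numbered 47729, 49585 and 52550 in the crypt, tissue and organoid sets, of which 47224, 49326 and 52403 matched GENCODE M21. Rows naming no gene were left out of library sizes and tests (in crypts, reads without a feature were 30.9% to 35.2%).

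Each set was fitted separately with edgeR 4.0.16 in R 4.3.3: filterByExpr, TMM scaling, and the robust quasi-likelihood test over all genes, with 1 coefficient per group. Benjamini-Hochberg adjustment ran over all genes tested, and genes with an adjusted p under 0.05 were called. The tissue and crypt controls were fitted together for the comparison between those sets. Log2 CPM in the fits used a prior count of 2. SE is the fold change divided by the square root of F. DESeq2 1.42.0, other scalings and filters, and leaving out each library were alternatives. On simulated data for tumors against adjacent tissue, 85.5% of 200 genes changed 4-fold among 17666 were recovered.

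Tumor and adjacent libraries of 1 mouse come from the same animal and are therefore pairs. Deviations from the group means correlated at 0.156, -0.164, 0.12 and 0.0641 for mice 1349, 1323, 1322 and 1319. The design was fitted without the mouse, since the labels state no model, and values with mouse as a block are printed where they change a call. The block fit held the tumor and adjacent libraries alone, without the controls that share the spread in the main fit.

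Members and gene lists were chosen with earlier results of these data known. Values per library are given, within each class, for called members with the largest changes and for the partner chains of their trimers, and in epithelium for those called or highest in controls.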

Additional observations from a re-analysis of the deposited data

Results flagged for a closer look

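For collagens called in the same set, 84 groups of 4 libraries were examined. The gap from the highest or lowest CPM to its nearest neighbour was taken as a share of the group's range (Dixon's test at the 95% level). A library stood apart in 8 of them. The chance rate of about 1 in 20 is only a rough guide, since these groups share libraries and are not independent.

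Tumor 1323 stood apart for 4 genes. Col3a1 had 3584 CPM there against 299 to 727 in the other tumors, Col5a2 had 814 against 98.7 to 185, Col5a3 had 150.0 against 19.1 to 28.7, and Col4a6 had 2.56 against 0.397 to 0.702. The same tumor had the highest sums of fibroblast and activated fibroblast markers (1525 and 1926 CPM), whose part in these values was not tested.

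Tumor 1322 stood apart for Col9a3, with 801 CPM against 167 to 231 in the other tumors.

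Tissue control 1320 stood apart for Col6a5 (16.0 CPM against 2.72 to 3.17), Col9a2 (5.35 against 1.18 to 1.84) and Col9a3 (5.35 against 0.468 to 0.858). These rest on 6, 2 and 2 reads in the library of 401365 counts.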

How the results depend on the processing

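No fold change of a called collagen changed sign under the alternatives run. Of the counts of called collagens, 198 kept within 1.5 times of the count reported and 36 did not. Of the values of single genes, 2919 kept their side of the threshold, 78 lost the call and 27 gained it.

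Between adjacent tissue and controls, DESeq2 called 1 lower, and fitting only these groups called 1 higher and 1 lower, where edgeR called 0. For H2BdIEC against control organoids (1 higher, 2 lower), the count was 3 higher with no low-count filter, 1 lower without robust fitting, and 0 higher and 1 lower when only these groups were fitted. With a replicate block on the letters A to C it was also 0 higher and 1 lower, although same-lettered libraries correlated at 0.000902, -0.178 and 0.102 and share only a letter. For H2B/p53dIEC against H2BdIEC organoids (3 higher), it was 5 with no filter and 1 when only these groups were fitted.

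With 1 library left out in turn, lower collagens ran from 2 to 5 in tumors against adjacent tissue (5 without tumor 1323) and from 1 to 4 in tumors against controls (4 without tumor 1323). Higher collagens ran from 0 to 3 in crypts, and from 0 to 2, with 1 to 2 lower, in H2BdIEC against control organoids. They ran from 0 to 5 in H2B/p53dIEC against H2BdIEC organoids (5 without H2BdIEC A or H2B/p53dIEC 3), and from 3 to 7, with 1 to 2 lower, in H2B/p53dIEC against control organoids. The mouse block in tumors against adjacent tissue gave 17 higher and 2 lower. It changed no other calls of named collagens than those of Col1a2, Col3a1, Col5a1, Col5a3, Col4a6 and Col28a1.

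In tumors against controls, the median over all genes was 0.068 by TMM, 0.151 by DESeq2 size factors, 0.15 by upper-quartile scaling and -0.204 in the DESeq2 test without a low-count filter. Between tissue and crypt controls the median over all genes turned from -0.134 to 0.0637 by upper-quartile scaling, and the higher share of calls was 46.6% by DESeq2 size factors. Depth limits control 1320 and the low collagens of organoids.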
